A study of Homo sapiens with 6 samples.

Results

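The chromobox (CBX) genes encode chromatin proteins that share an N-terminal chromodomain, the module that reads methylated lysines on histone H3. Rows for 7 chromobox genes were taken by gene symbol from the 57133 symbols of the count table, and all 7 were among the 14461 genes that could be tested. Of these, 3 are heterochromatin protein 1 (HP1) genes (CBX5, CBX1 and CBX3) and 4 are Polycomb genes (CBX2, CBX6, CBX7 and CBX8). The summed values and shares below are over these 7 genes and not over every chromobox gene.

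HP1 proteins bind H3K9me3 and dimerize through a second, C-terminal chromoshadow domain, and they are best known from constitutive heterochromatin. Polycomb CBX proteins are alternative subunits of canonical PRC1, the complex that ubiquitinates histone H2A and compacts chromatin. Their chromodomains can bind H3K27me3, the mark placed by PRC2. In vitro, the study found this binding weak for CBX8, whose chromodomain also bound DNA. Because each canonical PRC1 complex holds a single CBX protein, the relative amounts of the Polycomb members bear on which complexes a cell can build.

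RNA came from T98G cells, an established human glioblastoma line whose CBX8 gene was edited with a CRISPR guide (CBX8 KO). All 6 libraries come from this KO background: 3 carry the empty TetO-FUW vector (called CBX8 KO here) and 3 carry the same doxycycline-inducible vector with V5-tagged WT CBX8 (WT CBX8 re-expression). Per the labels, doxycycline was given to all of them, at 1 µg/ml for 72 h. The genotype label of the re-expression samples reads wild type, whereas their titles and the study's methods describe re-expression in the KO line, and the titles were followed. The sources used here do not say whether the KO line is a single clone, and the 2 stable lines were made by separate transduction, so the vector insert and the line cannot be told apart. No unedited T98G library was analysed here, so the level of CBX8 before knockout is not known from these data. Libraries held between 7950190 and 8659796 counts each, and pairs within a condition differed by more than sampling noise (1.96 to 2.9 chi-square units per degree of freedom). Whether replicates are separate cultures is not stated, so n counts libraries and p-values describe the spread between them. Of 12 glioblastoma markers, 9 reached 10 counts in a library, led by VIM and CD44, while SOX2 and S100B had no count in any library and NES had at most 4 counts. No leukocyte, epithelial or endothelial marker reached 10 counts, with summed levels of at most 0.881, 0.726 and 0.468 CPM. The 3 neuronal markers summed to 11.1 to 12.6 CPM in CBX8 KO and 14.1 to 17.2 CPM after re-expression, with RBFOX3 at most 1 count, and the 3 oligodendrocyte markers to 0.126 to 0.489 and 0.605 to 1.68 CPM, with MOG at 0 in all libraries. Both sums were higher in each re-expression library than in any KO library, and their part in the results below was not tested.

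The coding sequences of the members were compared first, to see whether reads of a strongly raised gene could be counted for its relatives. The stretch of 30 codons at which the CBX8 chromodomain was nearest to the other 6 members is shown for the 4 Polycomb genes and for CBX5, as 1 HP1 gene, to let the reader see how far the family differs at its most alike point. In CBX8 it covers codons 19 to 48 and lies in 3 exons on the minus strand of chromosome 17, between 79796285 and 79796944 (hg38). Sequences are from GENCODE release 44, 5′ to 3′ on the coding strand, and capitals mark bases identical to those of CBX8 at the same place.
CBX8: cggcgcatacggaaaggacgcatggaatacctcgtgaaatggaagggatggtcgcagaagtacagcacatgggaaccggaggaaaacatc
CBX6: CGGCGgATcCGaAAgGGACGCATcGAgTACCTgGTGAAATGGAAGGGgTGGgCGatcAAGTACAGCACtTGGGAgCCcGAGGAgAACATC
CBX7: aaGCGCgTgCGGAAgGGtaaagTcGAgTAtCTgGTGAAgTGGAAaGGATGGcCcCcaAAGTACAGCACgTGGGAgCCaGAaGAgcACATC
CBX2: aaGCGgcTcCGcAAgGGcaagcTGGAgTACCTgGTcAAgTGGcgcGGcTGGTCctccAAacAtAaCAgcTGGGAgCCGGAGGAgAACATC
CBX5: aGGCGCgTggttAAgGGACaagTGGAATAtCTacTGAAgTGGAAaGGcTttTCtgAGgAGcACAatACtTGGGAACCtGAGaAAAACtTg

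CBX6 was nearest to CBX8 here, with 27 of 30 residues and 74 of 90 bases identical. CBX7 shared 23 residues and 64 bases, CBX2 21 residues and 58 bases, and CBX5 18 residues and 61 bases. The capitals fall in short runs. Over whole coding sequences, none of the 21 pairs of members shared an identical run as long as the 100-base reads. The longest, 19 bases, was between CBX3 and CBX5, and the coding sequence of CBX8 shared at most 14 bases in a row with the canonical transcript of any other member. Processed pseudogenes are a different matter for the HP1 genes. Of 15 pseudogene rows of CBX1, CBX3 and CBX5, 9 had no count in any library and 1, CBX3P9, shared an identical run longer than a read with its parent (135 bases). CBX3P9 had 24, 39 and 34 counts in CBX8 KO and 43, 40 and 30 upon re-expression. The 9 CBX3 pseudogene rows together amounted to between 1.32% and 2.38% of the counts of CBX3 and its pseudogenes, so CBX3 is the member whose counts are least certain on this account.

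CBX8, the gene targeted and re-expressed, lies on chromosome 17 from 79792132 to 79801683 (hg38, ENSG00000141570.11). Its counts were 96, 104 and 83 in CBX8 KO, against 30372, 31408 and 27791 upon WT CBX8 re-expression. Every re-expression library was therefore far above every KO library. In CPM (counts scaled to the TMM-normalized library size), this was 11.7 ± 0.94 against 3489 ± 156 (SD, n = 3 each), a 297-fold difference (95% interval 265 to 334). On the log2 scale the difference was 8.22 ± 0.08 (SE), with an edgeR quasi-likelihood adjusted p = 1.0e-30 over all genes tested. Transcripts of the vector and of the edited gene are not separated in these counts, and a transcript from an edited gene is still counted, so the KO counts say nothing about protein.

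To compare genes with one another, CPM was divided by the length of all exons of the gene in kilobases. On this scale the CBX8 KO libraries were led by 2 HP1 genes. CBX3 (HP1γ) stood at 51.8 ± 1.07 CPM per kilobase and CBX1 (HP1β) at 48.9 ± 3.04 (SD, n = 3 each), and the library ranges of these 2 neighbours overlapped. CBX6 followed at 25.3 ± 1.13, then CBX5 (HP1α) at 16.6 ± 1.45 and CBX2 at 11.2 ± 0.72 (SD, n = 3 each), none of whose ranges overlapped the next. CBX8 and CBX7 were at the bottom, at 2.84 ± 0.23 and 1.62 ± 0.13 CPM per kilobase. Among the 12386 tested genes with an exon length, 94.5% lay below CBX3, 86.7% below CBX6 and 22.4% below CBX7. In the CBX8 KO cells, then, CBX6 was the most abundant of the 4 Polycomb transcripts, and the order of CBX7 and CBX8 depended on the length used.

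Upon re-expression CBX8 moved from the sixth to the first place. Its level was 846 ± 37.9 CPM per kilobase (SD, n = 3), rank 22 of the 12386 genes, with 99.8% of them below it. These values use the 4125-base exon length of the gene, of which 1167 bases are coding. The sources used here do not say which untranslated parts the vector holds, so this length may not be that of the vector transcript. Per kilobase of coding sequence the CBX8 level was 2990 ± 134 CPM (SD, n = 3). Per exon length CBX8 stood 16.6 ± 0.44 times above CBX1, 37.8 ± 1.9 times above CBX6 and 468 ± 40.7 times above CBX7 (ratios within a library, SD, n = 3). In the KO libraries CBX8 was at 0.113 ± 0.014 of CBX6 and at 1.76 ± 0.24 times CBX7 on the same scale. Behind CBX8 the order was CBX1, CBX3, CBX6, CBX5, CBX2 and CBX7, and no 2 neighbours overlapped. CBX1 and CBX3 had changed places. The order depends on the length that is used. With the canonical transcript CBX3 led CBX1 in both conditions and the ranges of CBX8 and CBX7 overlapped in the KO libraries, while with the coding length 5 of the 7 members in CBX8 KO and 3 upon re-expression took another rank, and CBX8 fell below CBX7 in the KO libraries (10.0 ± 0.81 against 16.1 ± 1.31 CPM per kilobase of coding sequence, SD, n = 3 each).

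**Figure D1:**
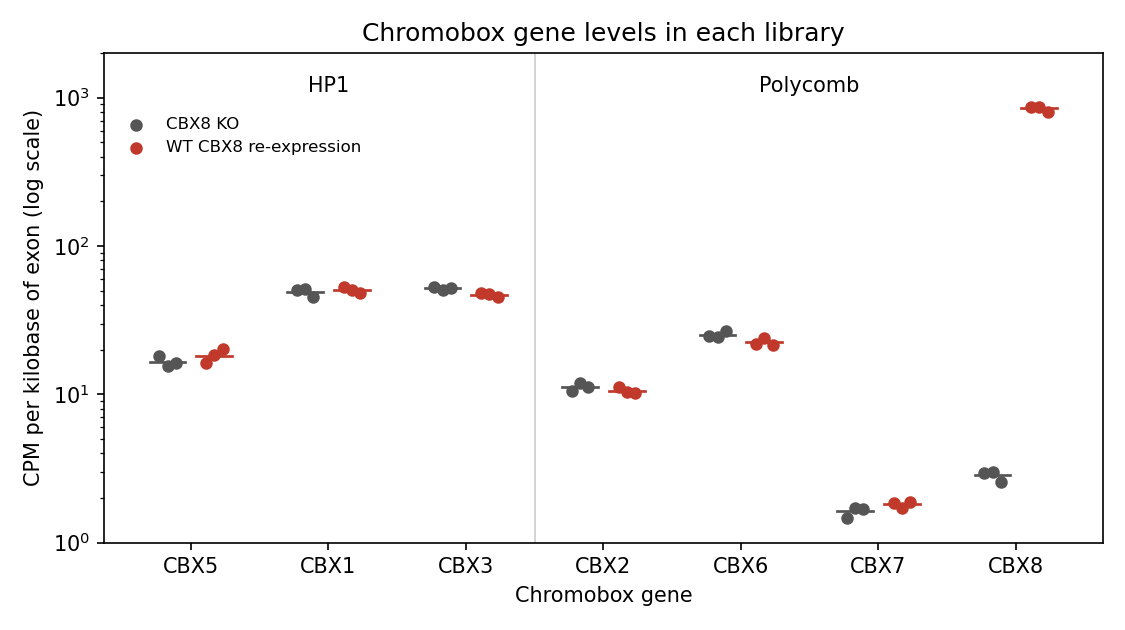
Level of each chromobox gene in CPM per kilobase of exon (log axis) in the 3 CBX8 KO libraries (grey) and the 3 WT CBX8 re-expression libraries (red). Points are libraries and lines are means. CBX8 goes from 2.84 to 846, and the fold of the other 6 genes lies between 0.886 and 1.115.

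The question of how far re-expression changes the make-up of the Polycomb CBX pool was put to the counts directly. CBX8 took 4.31%, 4.29% and 3.55% of the counts of CBX2, CBX6, CBX7 and CBX8 in the 3 CBX8 KO libraries. Upon re-expression it took 93.4%, 93.2% and 93.1%. The exact (Clopper-Pearson) 95% intervals, which cover counting error only, ran from 2.83% to 5.24% over the KO libraries and from 92.8% to 93.7% over the re-expression libraries, so the conditions were separated by far more than counting error. The group means were 4.05% ± 0.44 and 93.2% ± 0.17 (SD, n = 3 each), a difference of 89.2 percentage points. An exact two-sided permutation test over libraries gave p = 0.1, the smallest value that 3 against 3 libraries allow. The vector supplies CBX8, so the direction of this difference, and of that over the whole family below, was set by the design. Only its size is informative. Divided by exon length, the share went from 6.94% ± 0.71 to 96.1% ± 0.083, and divided by coding length from 4.38% ± 0.48 to 93.7% ± 0.17.

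CBX6 made up most of the KO pool, with 69.8% ± 1.71 of the counts, and CBX2 a further 22.0% ± 1.3 (SD, n = 3 each). Upon re-expression these shares were 4.78% ± 0.23 and 1.61% ± 0.071, and that of CBX7 went from 4.18% ± 0.26 to 0.362% ± 0.032. The added CBX8 counts are part of the sum behind these shares, so their fall was set by the design. Over CBX2, CBX6 and CBX7 alone, CBX6 went from 72.75% ± 1.63 to 70.81% ± 1.86 (SD, n = 3 each). On the same basis CBX2 went from 22.9% ± 1.4 to 23.8% ± 1.51, and CBX7 from 4.36% ± 0.27 to 5.37% ± 0.46. Against the summed counts of CBX2, CBX6 and CBX7, the CBX8 counts were 14.3, 13.6 and 13.6 times as many in the 3 re-expression libraries. Set against the whole family, CBX8 rose from 1.25% ± 0.1 to 79.3% ± 0.86 of the counts of all 7 genes (SD, n = 3 each, exact permutation p = 0.1). It then had 5.58, 5.45 and 4.94 times as many counts as the 3 HP1 genes together. As a part of all counts in a library, CBX8 reached at most 0.368%.

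**Figure D2:**
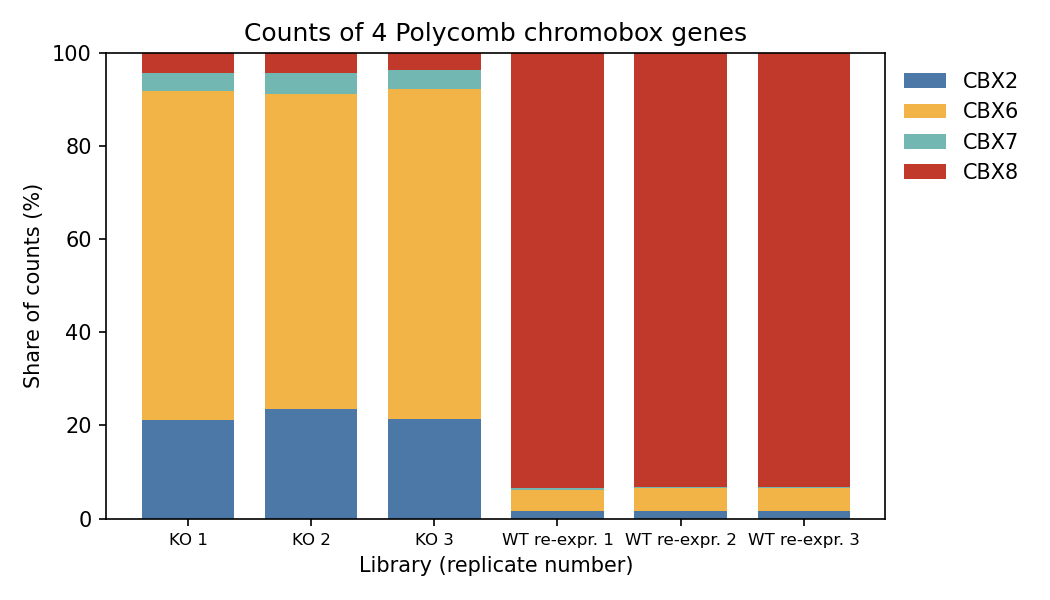
Share of the counts of CBX2, CBX6, CBX7 and CBX8 taken by each gene, in percent, in the 6 libraries. CBX6 fills most of the 3 CBX8 KO bars, and CBX8 takes 93.1% to 93.4% of the 3 re-expression bars.

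The other 6 members were then compared between conditions in the fit over all 14461 genes. Over all genes, 12.9% passed FDR < 0.05, 6.23% higher and 6.63% lower upon re-expression. Beside CBX8, 2 of the other 6 members passed, CBX6 and CBX3, and both fell. The libraries of the 2 conditions did not overlap in CPM for 4 of the 7 members (CBX3, CBX6, CBX7 and CBX8), where 28.9% of all tested genes showed no overlap. CBX8 is among these 4 by design, as the gene supplied by the vector.

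CBX6, the leading Polycomb member of the KO cells, lies on chromosome 22 from 38861422 to 38872249. It had 1574, 1643 and 1659 counts in CBX8 KO and 1474, 1680 and 1443 upon re-expression. After scaling, each re-expression library lay below each KO library, although replicate 2 of the re-expression libraries, at 192 CPM, was close to the lowest KO library at 195 CPM. CBX6 fell, from a KO mean of 202 ± 9.05 CPM to a re-expression mean of 179 ± 11.2 CPM (SD over 3 libraries). The log2 fold change of -0.17 ± 0.05 (SE) had an edgeR adjusted p = 0.030. Bulk counts do not tell fewer cells with the transcript from less of it per cell. The call was lost with DESeq2 (adjusted p = 0.054), with library size scaling (0.15) and without CBX8 KO replicate 3 (0.13), WT CBX8 re-expression replicate 1 (0.10) or WT CBX8 re-expression replicate 3 (0.11), in edgeR.

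CBX2, known for a charged region that compacts nucleosomes, is the chromosomal neighbour of CBX8, with 4148 bases between the 2 genes on chromosome 17 (79778148 to 79787983). It had 470, 568 and 499 counts in CBX8 KO and 540, 515 and 488 upon re-expression, and the conditions overlapped. The log2 fold change was -0.08 (95% interval -0.22 to 0.06, edgeR adjusted p = 0.49). CBX7, the Polycomb member best known for repressing the INK4A/ARF locus, lies on chromosome 22 (39120167 to 39152680), 247917 bases from CBX6. Its counts were low, 87, 107 and 99 in CBX8 KO and 117, 112 and 118 upon re-expression. Every re-expression library lay above every KO library, by a margin of 12.8 against 12.7 CPM between the nearest 2. The test did not call it, with a log2 fold change of 0.16 and an interval from -0.09 to 0.40 (edgeR adjusted p = 0.45), so at this depth a rise of up to 1.32-fold lies within the error. Exons of a lncRNA on the opposite strand overlap 17.9% of the exon length of CBX7, and without a stated strand setting their reads cannot be told apart.

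Among the HP1 genes, CBX3 (chromosome 7, 26201162 to 26213607) is found at transcribed genes as well as in heterochromatin. It had 2018, 2060 and 1971 counts in CBX8 KO and 1969, 1999 and 1854 upon re-expression. The 3 re-expression libraries were the 3 lowest after scaling, at 221 to 231 CPM against 245 to 255 CPM. CBX3 fell by 0.14 ± 0.05 (SE) on the log2 scale, close to the threshold (edgeR adjusted p = 0.047). It was no longer called when any 1 of the 6 libraries was left out, with adjusted p-values from 0.055 without WT CBX8 re-expression replicate 1 to 0.14 without WT CBX8 re-expression replicate 3, nor with DESeq2 (0.064), upper quartile scaling (0.072) or library size scaling (0.25). Exons of CBX3 overlap those of HNRNPA2B1 on the opposite strand over 368 bases, 7.6% of its exon length, and the strand setting of the counting is not given in the sources used here. HNRNPA2B1 had a log2 fold change of -0.05 (edgeR adjusted p = 0.54).

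CBX5 (chromosome 12, 54230942 to 54280133) is the HP1 member most tied to pericentric heterochromatin. It had 2171, 1951 and 1904 counts in CBX8 KO and 2095, 2411 and 2532 upon re-expression. The conditions overlapped, since CBX8 KO replicate 1 was above re-expression replicate 1. Its log2 fold change was 0.14 (95% interval 0.0042 to 0.27, edgeR adjusted p = 0.18). It passed the threshold without WT CBX8 re-expression replicate 1, at 0.21 (edgeR adjusted p = 0.027), and with library size scaling, at 0.19 (adjusted p = 0.034). CBX1 (chromosome 17, 48070052 to 48101478), far from CBX8 on the same chromosome, had 1215, 1305 and 1080 counts in CBX8 KO and 1380, 1354 and 1238 upon re-expression. These overlapped too, with a log2 fold change of 0.06 (95% interval -0.06 to 0.17, edgeR adjusted p = 0.59).

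**Figure D3:**
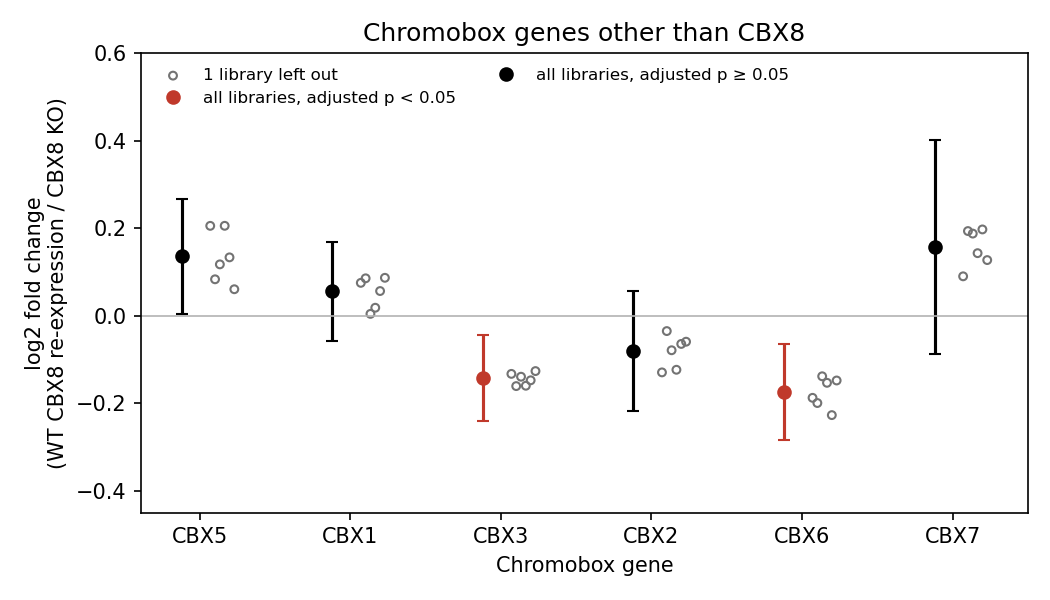
Log2 fold change of the 6 members other than CBX8, WT CBX8 re-expression over CBX8 KO. Filled points are the fit of all 6 libraries with its 95% interval, red where the edgeR adjusted p is under 0.05 (CBX3 and CBX6), and open circles are the 6 fits without 1 library. All points lie between -0.23 and 0.21.

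Class sums were compared by exact two-sided permutation tests over libraries, which cannot go below p = 0.1 with 3 against 3. CBX2, CBX6 and CBX7 together stood at 269, 275 and 289 CPM in CBX8 KO and at 251, 264 and 244 CPM upon re-expression. With TMM scaling the 2 conditions did not overlap. The mean difference was -25.1 CPM (278 ± 10.1 against 253 ± 9.99, SD, n = 3 each, exact permutation p = 0.1), and CBX6 carries most of this sum. With library size scaling the difference was -14.9 CPM (exact permutation p = 0.2). CBX1, CBX3 and CBX5 together were at 682, 632 and 634 CPM in CBX8 KO and at 640, 659 and 669 CPM upon re-expression, which overlapped (649 ± 28.4 against 656 ± 15, SD, n = 3 each, exact permutation p = 0.8). The difference of 6.7 CPM became 31.9 CPM with library size scaling (exact permutation p = 0.2). Within this sum CBX3 went from 38.6% ± 1.22 to 34.6% ± 1.6 of the counts and CBX5 from 38.4% ± 1.74 to 41.8% ± 3.27. The ratio of the 3 Polycomb genes to the 3 HP1 genes was 0.429 ± 0.031 in CBX8 KO and 0.385 ± 0.019 upon re-expression (SD, n = 3 each). Its ranges overlapped (exact permutation p = 0.2). The difference in this ratio was -0.0433 from counts, -0.0252 with counts divided by exon length and -0.0181 with counts divided by coding length.

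**Figure D4:**
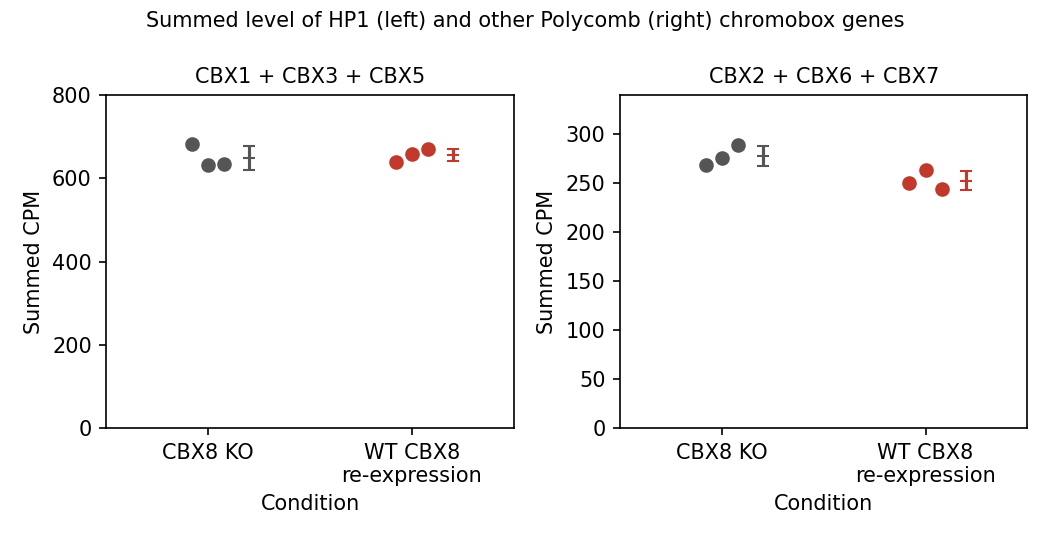
Summed TMM-scaled CPM of CBX1, CBX3 and CBX5 (left) and of CBX2, CBX6 and CBX7 (right) in the 6 libraries, with mean and SD beside the points and axes from 0. The left groups overlap between 632 and 682, and the right groups do not, at 269 to 289 against 244 to 264.

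Genes whose products work with the members, and other genes with a chromodomain, were followed as 4 lists. Of 19 tested genes for other PRC1 subunits, 1 rose and 2 fell, with a median log2 fold change of -0.05, beside 0.0049 over all genes tested. PHC2, a polyhomeotic subunit, had 796, 902 and 858 counts in CBX8 KO and 808, 802 and 769 upon re-expression, and fell by 0.19 ± 0.06 (SE) on the log2 scale (edgeR adjusted p = 0.020). The PCGF3/5-type subunit gene AUTS2 fell (-0.23, edgeR adjusted p = 0.040), and BCORL1, a subunit of a variant complex, rose (0.38, edgeR adjusted p = 0.020). Of 11 PRC2 genes, 1 rose and 0 fell (median 0.04). This was LCOR, at 427, 439 and 384 against 466, 611 and 623 counts (0.36, edgeR adjusted p = 0.0043), a locus whose longer product is a PRC2 accessory protein. These shares, 15.8% and 9.09%, stand beside the 12.9% of all genes.

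Of 20 tested genes for H3K9 methylation and HP1 partners, 1 fell and 0 rose (5% called, median -0.03). LBR, the lamin B receptor, which binds HP1 at the nuclear envelope, had 1473, 1552 and 1413 counts in CBX8 KO and 1399, 1455 and 1359 upon re-expression (-0.16, edgeR adjusted p = 0.024). Of 19 tested genes for other chromodomain proteins, 2 rose and 0 fell (10.5% called, median -0.01). Both are nucleosome remodelers, CHD2 (0.24, edgeR adjusted p = 0.011) and CHD3 (0.25, edgeR adjusted p = 0.0021). CHD3 had 1135, 1063 and 988 counts in CBX8 KO and 1318, 1363 and 1358 upon re-expression. Of these 7 list genes, LCOR and CHD3 stayed under 0.05 in all 16 alternatives, and the adjusted p of the other 5 reached between 0.073 (CHD2) and 0.16 (AUTS2). SUV39H1 and SUV39H2 were on both of these lists, and neither was called.

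By the Pearson correlation of log2 CPM over the 6 libraries, among 13484 genes, the patterns most like that of CBX8 were those of SCARA3 (r = 0.998), AP1AR, MARCH1, SH3GLB2 and ATP8B1 (all 0.998). For CBX8 such a value mostly says that 3 libraries are low, 3 are high and the spread within each is small. MARCH1 had 33, 36 and 32 counts in CBX8 KO and 343, 379 and 420 upon re-expression, whereas SH3GLB2 had 269, 281 and 265 against 352, 362 and 348. For the other members the nearest genes were ZNF438 for CBX1 (r = 0.989), SGCE for CBX3 (0.997), VAX2 for CBX5 (0.99), SSBP4 for CBX2 (0.984), RPL30 for CBX6 (0.993) and PWWP2B for CBX7 (0.995). The nearest of many genes were picked and the libraries share their scaling, so these values are descriptions.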

How the data were processed

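RNA-seq of 6 libraries (3 per condition) was analysed, grouped by sample title. Raw counts for each gene symbol were deposited by the authors, after trimming with Trimmomatic and alignment of 100 bp paired-end reads to hg38 with HISAT2. Which program, annotation and strand setting were used for counting is not given in the sources used here. Intervals from counts cover counting error only, since reads carry no molecular identifiers. Of 57133 symbols, 29123 had no count.

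In R 4.3.3, filterByExpr of edgeR 4.0.16 kept 14461 genes across the table. After TMM, conditions were compared with glmQLFit and glmQLFTest, with Benjamini-Hochberg adjustment. The study's methods name edgeR and FDR < 0.05, and the other settings were chosen here. Standard errors are the log2 fold change divided by the root of the F statistic. Alternatives were run with DESeq2 1.42.0 and limma 3.58.1 (voom), other scalings and filters, a replicate block and each library left out. Shares and sums were compared by exact permutation in SciPy 1.17.1. Lengths, positions and sequences are from GENCODE release 44 (hg38), matched by symbol.

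The members and lists were chosen with earlier results of these data known. Named genes are the members, called list genes, and the genes nearest in pattern (5 for CBX8, 1 for each other member, mean log2 CPM of at least 1, prior count 2).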

Additional observations from a re-analysis of the deposited data

How the results depend on the processing

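CBX8 stayed called in all 16 alternatives (log2 fold change 8.15 to 8.27), and CBX1, CBX2 and CBX7 stayed uncalled in the same direction. CBX8 shares kept their direction, with differences of 88.9 to 89.3 points (Polycomb) and 77.7 to 78.5 points (all 7 members) with 1 library left out.

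CBX6 lost its call with library size scaling (-0.119), DESeq2 (-0.178) and the replicate block (-0.175), and ranged from -0.227 to -0.139 with 1 library left out. CBX3 lost its call with upper quartile scaling (-0.131), library size scaling (-0.0876), DESeq2 (-0.147), the replicate block (-0.143) and each library left out (-0.161 to -0.127). CBX5 passed with library size scaling (0.191) and ranged from 0.0603 to 0.205 with 1 library left out. The number of members called lower, 2 with all libraries, was 1 with upper quartile scaling, 0 with library size scaling, 0 with DESeq2, 0 with the replicate block and 0 to 1 with 1 library left out. Members called higher were 2 with library size scaling and 1 to 2 with 1 library left out. The difference in the HP1 sum, 6.7 CPM, was 31.9 with library size scaling, 12.4 with upper quartile scaling, -1.34 per kilobase and -2.13 to 23.1 with 1 library left out (below 0 without CBX8 KO replicate 2 at -2.13, CBX8 KO replicate 3 at -0.861 or re-expression replicate 3 at -0.0916). That in the sum of CBX2, CBX6 and CBX7 was -14.9 with library size scaling and -30.5 to -19.5 with 1 library left out, against -25.1. By level, 2 members took another rank upon re-expression with the canonical transcript length and 3 with the coding length, and 5 did in CBX8 KO with the coding length.

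For other PRC1 subunits, 2 were called higher and 0 lower with library size scaling, 0 and 0 with DESeq2, 1 lower with upper quartile scaling, 1 lower with the replicate block, and 0 to 2 in either direction with 1 library left out. Among HP1 partners, 1 was called higher and 0 lower with library size scaling, 0 lower with the replicate block, and 0 to 1 in either direction with 1 library left out. Other chromodomain genes ranged from 1 to 2 called higher and 0 to 1 lower with 1 library left out. The cause of these shifts was not tested.

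Deviations of same-numbered libraries correlated at -0.144, -0.182 and -0.115 over 10353 genes, so no pairing by replicate number was seen. Differently numbered libraries were not compared in this way, so the check cannot exclude pairing. With the block the edgeR adjusted p was 0.065 for CBX6 and 0.10 for CBX3, and both stand as lost calls. Over all genes the block left 739 genes higher and 766 lower, of 901 and 959. DESeq2 gave 502 and 695, and leaving out WT CBX8 re-expression replicate 2 gave 593 and 635. Library size scaling gave 1400 and 592, and shifted the median of all genes to 0.06. For CBX7, with about 100 counts a library, depth limits what can be seen.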
